A study of Rattus norvegicus with 4 samples.

Results

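The genes described here are 10 amino acid transporter genes of the rat, taken by gene name from the 25810 genes of the count files. They are the glutamate transporters Slc1a1, Slc1a2 and Slc1a3, the neutral amino acid exchangers Slc1a4 and Slc1a5, the exchanger light chains Slc7a5 and Slc7a11 with their heavy chain Slc3a2, and the sodium-coupled carriers Slc38a1 and Slc38a2. RNA was compared between 2 clones of PC12, a rat line from a chromaffin cell tumour that is used as a model of neurons. The clone wtPC12 has low levels of REST, a transcription repressor of neuronal genes, and hrPC12 has high levels of it without any manipulation or treatment. Each clone was sequenced in 2 libraries. Each clone is a single cell line, and what REST does and what else sets the clones apart cannot be told apart. The labels do not say that the libraries came from separate cultures, and the p values then measure only the spread between these libraries. In bulk RNA, fewer cells that carry a transcript and less transcript per cell cannot be told apart either. The genes were grouped by family and function with earlier results of these libraries known, and Slc1a3 was selected on its measured rise in hrPC12, so its values are given without a test and it is left out of the counts over the other 9 genes.

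Cells take up and trade amino acids through carriers of several families. The glutamate transporters of the SLC1 family use the sodium gradient to bring glutamate into the cell. In brain they clear glutamate from synapses, and the products of Slc1a2 and Slc1a3 (GLT-1 and GLAST) are best known from astrocytes. Slc1a4 and Slc1a5 belong to the same family but exchange small neutral amino acids such as alanine, serine and, for Slc1a5, glutamine. The SLC7 light chains reach the membrane bound to the heavy chain 4F2hc, the product of Slc3a2, with Slc7a5 (LAT1) taking up leucine and other large neutral amino acids and Slc7a11 (xCT) importing cystine in exchange for glutamate. Cystine feeds the synthesis of glutathione. Slc38a1 and Slc38a2 accumulate glutamine and other small neutral amino acids with sodium, and Slc38a2, Slc7a11 and Slc3a2 are known to be induced through ATF4 when amino acids are short.

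The libraries held between 20975027 and 27246502 reads on genes. A normalized count is a read count scaled to the mean library size with edgeR's TMM factors, and 3 reads, the number that a count of 0 still allows, correspond to 2.54 to 3.49 normalized counts. Rest itself read 43.0 and 132 in wtPC12 and 964 and 914.7 in hrPC12, in the direction of the labels. Its log2 FC (hrPC12 over wtPC12) was 3.42 with a standard error (SE) of 0.57, and its adj. p value was 0.0115 (quasi-likelihood test of edgeR, Benjamini-Hochberg adjusted, the test behind every adj. p value given here unless DESeq2 is named). Genes were called changed at an adj. p value under 0.01, and the counts at 0.05 are given beside it. Of 13726 genes tested, edgeR called 1796 (13.1%) at 0.01, 980 (7.14%) lower and 816 (5.94%) higher in hrPC12, of which 749 (5.46% of those tested) and 665 (4.84%) also lay past a log2 FC of 2. At 0.05 it called 2234 (16.3%) lower and 2215 (16.1%) higher. Without wtPC12 replicate 2 edgeR called 0 genes at 0.01, with a lowest adj. p value of 0.0134 and 6798 genes at an unadjusted p under 0.05.

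Of the 9 counted transporters, Slc1a1 had too few reads for the test, and Slc1a2 passed the minimum mean of 5 normalized counts only through hrPC12. Slc1a2 could not have been tested without a difference, so it is described without a p value and left out of the counts that follow. Of the remaining 7, Slc1a5 was called lower at 0.01, past a log2 FC of 2, and 0 were called higher. At 0.05 Slc1a4 and Slc3a2 were also lower and Slc38a2 was higher, which makes 3 lower and 1 higher. DESeq2 called 3 lower and 1 higher at 0.01, where it called 14.0% of all tested genes lower and 13.7% higher. At an unadjusted p under 0.05 edgeR found 4 lower and 1 higher, beside 22.7% and 23.6% of all tested genes. In 5 of the 7 both hrPC12 libraries lay below both wtPC12 libraries, and in 1 they lay above. Over all tested genes such a lack of overlap was found in 35.6% on the lower side and 37.9% on the higher side. These 7 genes had a median log2 FC of -0.64, beside 0.06 over all tested genes. The shares and the median over all tested genes still include genes that passed the filter through 1 clone only.

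**Figure D1:**
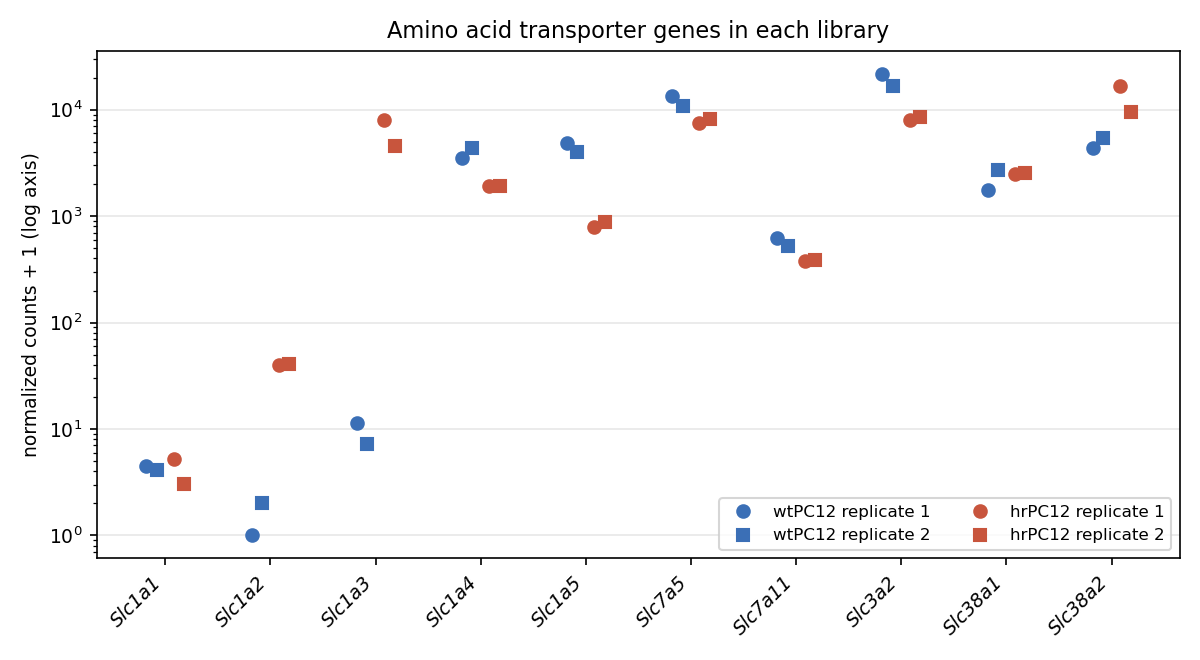
Normalized counts plus 1 on a log axis for the 10 transporter genes in each of the 4 libraries (blue, wtPC12; red, hrPC12; circles, replicate 1; squares, replicate 2). Slc1a3 moves from 10.5 and 6.18 normalized counts in wtPC12 to 8039 and 4556 in hrPC12, Slc1a5 moves down to 789.8 and 877, and Slc1a1 stays within a few reads in every library. Gene lengths differ, so heights are to be compared within a gene.

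Among the high-affinity glutamate transporters, Slc1a3, which encodes the glial transporter GLAST, was nearly silent in wtPC12 and abundant in hrPC12. It had 9 and 6 reads in the wtPC12 libraries and 9496 and 4503 in the hrPC12 libraries. After normalization these were 10.5 and 6.18 against 8039 and 4556, or 8.32 ± 3.03 against 6298 ± 2463 (mean ± SD, n = 2 per clone). The groups lay far apart, and the hrPC12 libraries also differed from each other. The fitted log2 FC was 9.56 with an SE of 0.50. With each library left out in turn it ranged from 9.09 (without hrPC12 replicate 1) to 9.93 (without wtPC12 replicate 1).

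Slc1a2, which encodes GLT-1, the main glutamate transporter of the forebrain, also appeared in hrPC12 but at a low count. There was 0 and 1 read in wtPC12 and 46 and 39 in hrPC12, which is 0 and 1.03 against 38.9 and 39.5 normalized counts. Both hrPC12 libraries were close to each other and clear of wtPC12, where the reads were under the limit that a count of 0 allows. The ratio of the summed reads, corrected for depth, was 71.7 with a 95% interval of 12.5 to 2865, which covers counting error only. The fitted log2 FC was 5.88 (SE 0.80), and 5.07 without wtPC12 replicate 1.

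Slc1a1, which encodes the neuronal glutamate transporter EAAC1, was at the limit of detection in both clones. The libraries held 3 and 3 reads in wtPC12 and 5 and 2 in hrPC12. Their ratio was 0.984 with a 95% counting interval of 0.283 to 3.55, so that a difference of up to a few-fold in either direction was not detectable at this depth. The remaining glutamate transporters of the family were absent or nearly so. Slc1a6 had 0 reads in all 4 libraries, and Slc1a7 had 0 and 1 read in wtPC12 and 2 and 0 in hrPC12. Slc1a3 and Slc1a2 were thus the glutamate transporters of the SLC1 family with more than a few reads in hrPC12, and in wtPC12 the highest count of any of the 5 was the 9 reads of Slc1a3.

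The neutral amino acid exchangers of the same family were both abundant in wtPC12 and lower in hrPC12. Slc1a5, which encodes the glutamine exchanger ASCT2, read 4815 and 4026 normalized counts in wtPC12 and 789.8 and 877 in hrPC12, or 4420 ± 558 against 834 ± 61.8 (mean ± SD, n = 2 per clone). The clones did not overlap, and hrPC12 was 5.30-fold lower. Its log2 FC was -2.41 (SE 0.19, adj. p value 0.00131 by edgeR, Benjamini-Hochberg). Leaving out each library in turn kept the log2 FC between -2.53 and -2.30. The adj. p value rose to 0.0149 without wtPC12 replicate 2, where edgeR called no gene at all.

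Slc1a4, which encodes ASCT1, the exchanger for alanine, serine and cysteine, read 3526 and 4330 in wtPC12 and 1923 and 1931 in hrPC12. The clones did not overlap, and the hrPC12 libraries were almost equal. The level was 2.04-fold lower in hrPC12, with a log2 FC of -1.03 (SE 0.18). Its adj. p value was 0.0142 by edgeR (Benjamini-Hochberg), past 0.05 but not past 0.01, and 0.000273 by DESeq2. In edgeR it missed 0.05 as well without hrPC12 replicate 1 (adj. p value 0.0570) and without hrPC12 replicate 2 (0.0511).

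**Figure D2:**
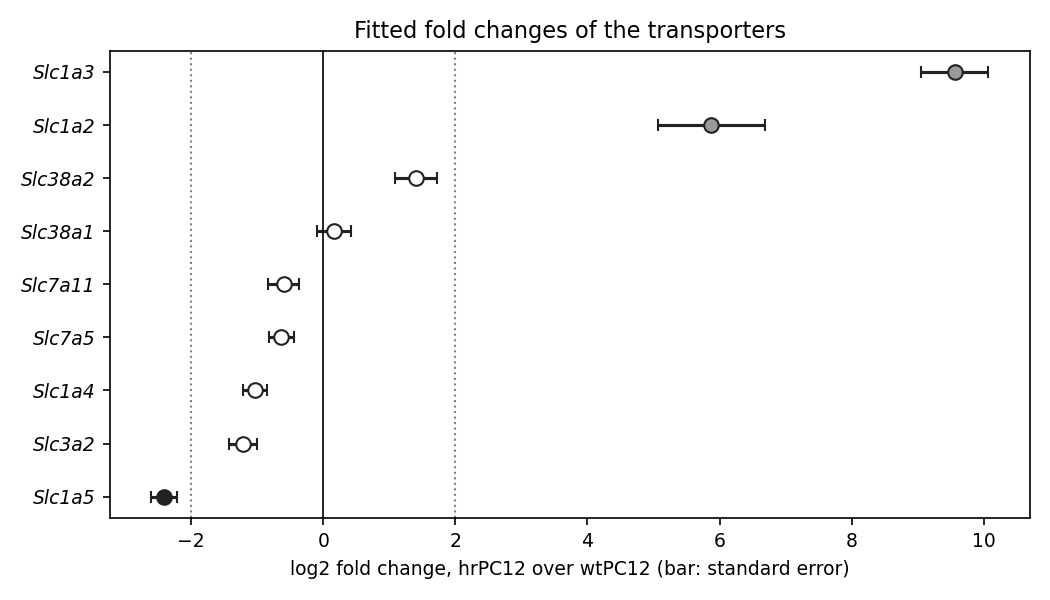
Fitted log2 FC of hrPC12 over wtPC12 for the 9 transporters that were fitted, with bars of 1 standard error and dotted lines at a log2 FC of -2 and 2. The black point (Slc1a5 at -2.41) has an adj. p value under 0.01 and open points do not. Grey points are shown without a test, Slc1a3 at 9.56 since it was chosen for its rise and Slc1a2 at 5.88 since it passed the filter only through hrPC12.

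Slc3a2, the heavy chain that several light chains need, read 21724 and 16516 normalized counts in wtPC12 and 7953 and 8520 in hrPC12. This was 2.32-fold lower, with no overlap between the clones and a log2 FC of -1.21 (SE 0.21). The adj. p value was 0.0136 by edgeR (Benjamini-Hochberg) and 3.91e-05 by DESeq2. Without hrPC12 replicate 1 it was 0.0656 by edgeR, and it stayed under 0.05 when any other single library was left out. RefSeq lists a pseudogene of Slc3a2 in the rat, and how reads shared with it were counted is uncertain.

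Slc7a5, the leucine exchanger LAT1, read 13414 and 10930 in wtPC12 and 7452 and 8208 in hrPC12. Its libraries did not overlap either, but the log2 FC of -0.64 (SE 0.19) did not pass the test, with an adj. p value of 0.0570 (edgeR's quasi-likelihood test, Benjamini-Hochberg). Slc7a11, the cystine importer xCT, read 626 and 527 in wtPC12 and 376 and 384 in hrPC12. It had a log2 FC of -0.60 (SE 0.24) and an adj. p value of 0.110 in the same test. For both light chains all wtPC12 values lay above all hrPC12 values, a pattern that is common among all tested genes. Whether Slc7a5 passed 0.05 depended on the processing. By edgeR its adj. p value was 0.0609 with RLE factors, 0.0790 with library totals alone and 0.0476 with every gene that had reads. By DESeq2 it was 0.0330. With each library left out in turn, the log2 FC of Slc7a5 ranged from -0.78 (without wtPC12 replicate 2) to -0.51 (without wtPC12 replicate 1). Slc7a6, another light chain of Slc3a2 that was chosen after its values were seen, read 1959 and 2102 in wtPC12 and 2950 and 3037 in hrPC12. Its log2 FC was 0.56 (SE 0.16), given without a test because of that choice. Slc7a7 and Slc7a10, light chains chosen the same way, went in the other direction, at log2 FC of -1.45 and -1.86, as did Slc7a8.

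The sodium-coupled glutamine carriers Slc38a1 and Slc38a2 did not follow the exchangers. Slc38a2, which encodes SNAT2, the carrier best known for its induction when amino acids are withdrawn, read 4385 and 5431 normalized counts in wtPC12 and 16559 and 9416 in hrPC12. Both hrPC12 libraries lay above both wtPC12 libraries, but they differed from each other more than the wtPC12 pair did. Slc38a2 was 2.65-fold higher, with a log2 FC of 1.40 (SE 0.32, adj. p value 0.0282 by edgeR, Benjamini-Hochberg). Without hrPC12 replicate 1 the log2 FC was 0.94 with an adj. p value of 0.0738 by edgeR, and it also missed 0.05 without wtPC12 replicate 1 (0.0857) or 2 (0.102). Without hrPC12 replicate 2 it was 1.71 with an adj. p value of 0.00555 in edgeR's test. Slc38a1, which encodes SNAT1, the glutamine carrier of many neurons, read 1752 and 2736 in wtPC12 and 2491 and 2549 in hrPC12. The clones overlapped, the log2 FC was 0.17 (SE 0.26) and edgeR's Benjamini-Hochberg adj. p value was 0.631. Without wtPC12 replicate 1 the sign of Slc38a1 turned, to a log2 FC of -0.15.

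The hrPC12 libraries stood apart from each other in a way that touched Slc1a3 and Slc38a2. Among 7704 genes with a mean of at least 500 normalized counts over the 4 libraries, 1261 (16.4%) had a log2 ratio of replicate 1 over replicate 2 above 0.5. Their median ratio was 1.77, while the median of the remaining genes was 0.949. The ratio of Slc1a3 was 1.76 and that of Slc38a2 was also 1.76, both within the higher group of genes. The other transporters that were tested had log2 ratios between -0.15 and -0.01. Of the 6 nearest genes with at least 100 normalized counts around Slc1a3 on the reference assembly, 5 were in the higher group, with a median log2 ratio of 0.88. Around Slc38a2 it was 0 of 6, with a median of 0.06. Other genes described below had a like ratio of the hrPC12 libraries, among them Cth at 1.73 and Fgfr3 at 1.75. In wtPC12, 2289 genes (29.7%) had a log2 ratio past 0.5 in either direction. The 16.4% of hrPC12 counts 1 direction only, so these shares are not like measures. The part of these library differences in the values of Slc1a3 and Slc38a2 was not tested beyond leaving out each library.

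**Figure D3:**
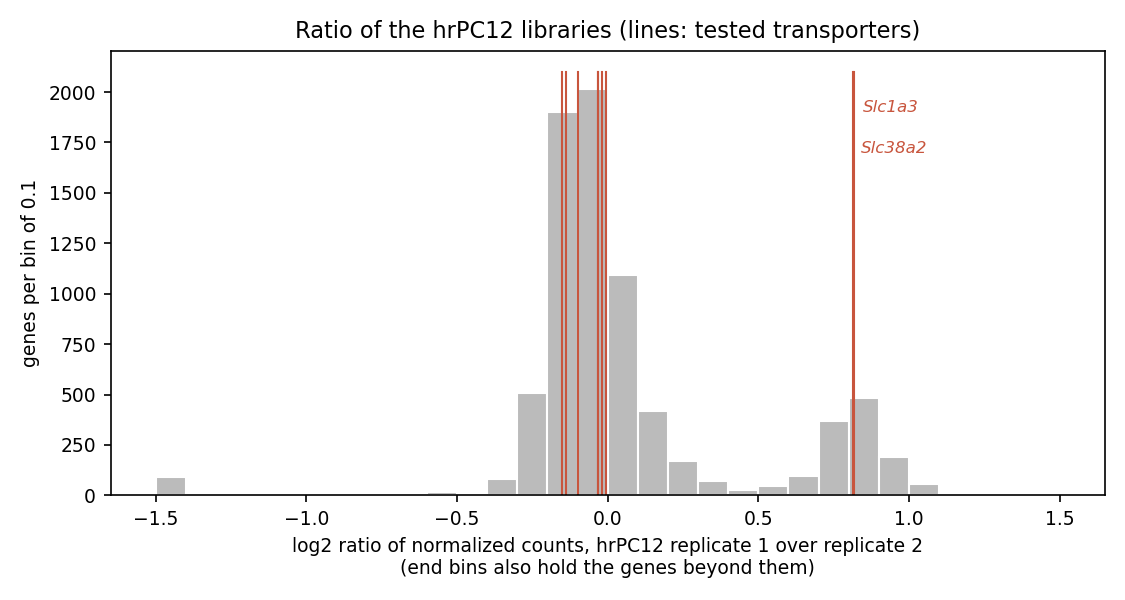
Distribution of the log2 ratio of hrPC12 replicate 1 over replicate 2 for 7704 genes (grey bars, genes per bin of 0.1, with the genes beyond the axis in the end bins), with a red line for each tested transporter. Most genes and 7 of the transporters lie near 0, while Slc1a3 and Slc38a2 stand together at 0.82 and 0.81 in the second, smaller group of genes.

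The promoters of the transporters that moved in opposite directions are shown because amino acid shortage and oxidative stress act on this family through short known motifs. RefSeq promoter windows of the assembly GRCr8, each from 250 bases before to 50 bases after a transcript start, were found for 8 of the 10 genes in 12 windows, with no entry for Slc1a1 and Slc1a5. The motifs searched on both strands were TGATGNAA, the site of ATF4 with a C/EBP partner, TGACNNNGC, the core of the antioxidant response element bound by Nrf2, and the left and right parts of the RE-1 site of REST, TTCAGCACC and GGACAGC. Over all 33469 windows these were found in 3.98%, 12.1%, 0.356% and 6.59%. The 250 bases before the start are printed 5′ to 3′ on the strand of the gene in lower case, with a match in capitals, for Slc1a3, which has 3 starts a few bases apart, and for the 4 genes with a match.
Slc1a3, chr2:59557798-59558047, minus strand: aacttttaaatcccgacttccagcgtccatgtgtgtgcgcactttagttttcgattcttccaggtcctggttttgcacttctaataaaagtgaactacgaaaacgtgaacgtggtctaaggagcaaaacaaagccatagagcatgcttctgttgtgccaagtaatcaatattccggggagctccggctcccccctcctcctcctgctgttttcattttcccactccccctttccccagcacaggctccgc
Slc1a4, chr14:98761563-98761812, minus strand: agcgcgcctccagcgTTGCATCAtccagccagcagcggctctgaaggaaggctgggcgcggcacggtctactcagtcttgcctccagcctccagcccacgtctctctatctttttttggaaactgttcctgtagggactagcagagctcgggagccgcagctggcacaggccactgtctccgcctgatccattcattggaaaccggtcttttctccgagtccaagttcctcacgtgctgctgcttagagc
Slc38a1, chr7:129681402-129681651, minus strand: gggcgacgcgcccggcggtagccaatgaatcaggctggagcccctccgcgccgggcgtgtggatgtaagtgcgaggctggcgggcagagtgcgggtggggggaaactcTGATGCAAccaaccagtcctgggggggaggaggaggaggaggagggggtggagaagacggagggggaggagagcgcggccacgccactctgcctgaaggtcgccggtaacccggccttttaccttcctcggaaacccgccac
Slc3a2, chr1:215039671-215039920, minus strand: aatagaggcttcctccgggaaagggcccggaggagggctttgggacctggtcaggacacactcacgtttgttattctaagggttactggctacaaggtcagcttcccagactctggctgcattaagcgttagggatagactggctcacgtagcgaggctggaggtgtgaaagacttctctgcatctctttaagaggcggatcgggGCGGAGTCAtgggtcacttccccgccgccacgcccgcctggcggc
Slc38a2, chr7:129742620-129742869, minus strand: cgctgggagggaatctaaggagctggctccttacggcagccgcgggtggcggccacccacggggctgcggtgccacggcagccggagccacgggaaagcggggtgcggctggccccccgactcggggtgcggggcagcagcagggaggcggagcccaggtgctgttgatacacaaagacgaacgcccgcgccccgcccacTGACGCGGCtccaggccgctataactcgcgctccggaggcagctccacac
The ATF4 motif was found in Slc1a4, which was lower in hrPC12, at positions -235 to -228 from the start on the reverse strand, and in Slc38a1, which was not called, at -142 to -135 on the forward strand. The antioxidant core was found in 1 of the 2 starts of Slc3a2, at -45 to -37 on the reverse strand, and in Slc38a2, which read higher, at -50 to -42 on the forward strand. No window held more than 1 match, and the RE-1 parts had no match in the 12 windows. A match describes the letters and not a bound site, and no binding was measured in these samples.

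Other amino acid carriers were read from a list of 55 genes, of which 50 were found by name, 39 had reads and 27 were tested. At 0.01 edgeR called 3 of them lower and 2 higher, where it called 7.14% and 5.94% of all tested genes. At 0.05 it called 9 lower and 3 higher, beside 16.3% and 16.1%. The median log2 FC was -0.43, beside 0.06 over all tested genes. Slc6a7, Slc25a18, Slc38a5 and Slc7a14 passed the filter through 1 clone only. Their calls are therefore not tests. Without these 4, edgeR called 2 of 23 lower and 0 higher at 0.01, and 8 lower and 0 higher at 0.05, with a median log2 FC of -0.61. DESeq2 called 6 lower and 0 higher at 0.01, beside 14.0% and 13.7% of all tested genes. At an unadjusted p under 0.05 edgeR found 10 lower and 2 higher, beside 22.7% and 23.6%. The shares over all tested genes still include genes that passed the filter through 1 clone only, so they are not a like measure for these 23. Slc7a8, the light chain LAT2 that also pairs with Slc3a2, read 9141 and 9517 in wtPC12 and 760.2 and 795 in hrPC12. The clones did not overlap, with a log2 FC of -3.58 (SE 0.17) and an adj. p value of 0.000427 (edgeR's quasi-likelihood test, Benjamini-Hochberg). Slc25a22, a mitochondrial glutamate carrier, read 3137 and 2560 in wtPC12 and 753 and 774 in hrPC12, with a log2 FC of -1.90 and an adj. p value of 0.00290 in the same test by edgeR.

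The largest differences of the list were in genes that were close to silent in 1 of the clones. Slc6a7, a sodium-coupled proline transporter of brain, had 1 and 2 reads in wtPC12 and 655 and 556 in hrPC12, a ratio of 341 with a 95% counting interval of 116 to 1654. Slc7a14, a lysosomal member of the SLC7 family, went the other way, with 172 and 1042 reads in wtPC12 and 3 and 2 in hrPC12. Its ratio was 288, with a counting interval of 123 to 888, and its wtPC12 libraries differed several-fold from each other. The fitted log2 FC of Slc7a14 was -8.04, and -6.37 without wtPC12 replicate 2. Slc25a18, the other mitochondrial glutamate carrier, and Slc17a6, a vesicular glutamate transporter of neurons, were chosen after their values were seen, as was Slc38a5. Slc25a18 had 1 and 0 reads in wtPC12 and 45 and 35 in hrPC12, a ratio of 67.5 with a counting interval of 11.8 to 2699. Slc17a6 had 0 reads in both wtPC12 libraries and 57 and 44 in hrPC12, which makes it at least 14.1-fold higher against a floor of 3 reads per library. Another vesicular glutamate transporter, Slc17a7, also chosen after its values were seen, was read in both clones. It had 677 and 888 normalized counts in wtPC12 and 1016 and 1076 in hrPC12 (log2 FC 0.42).

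**Figure D4:**
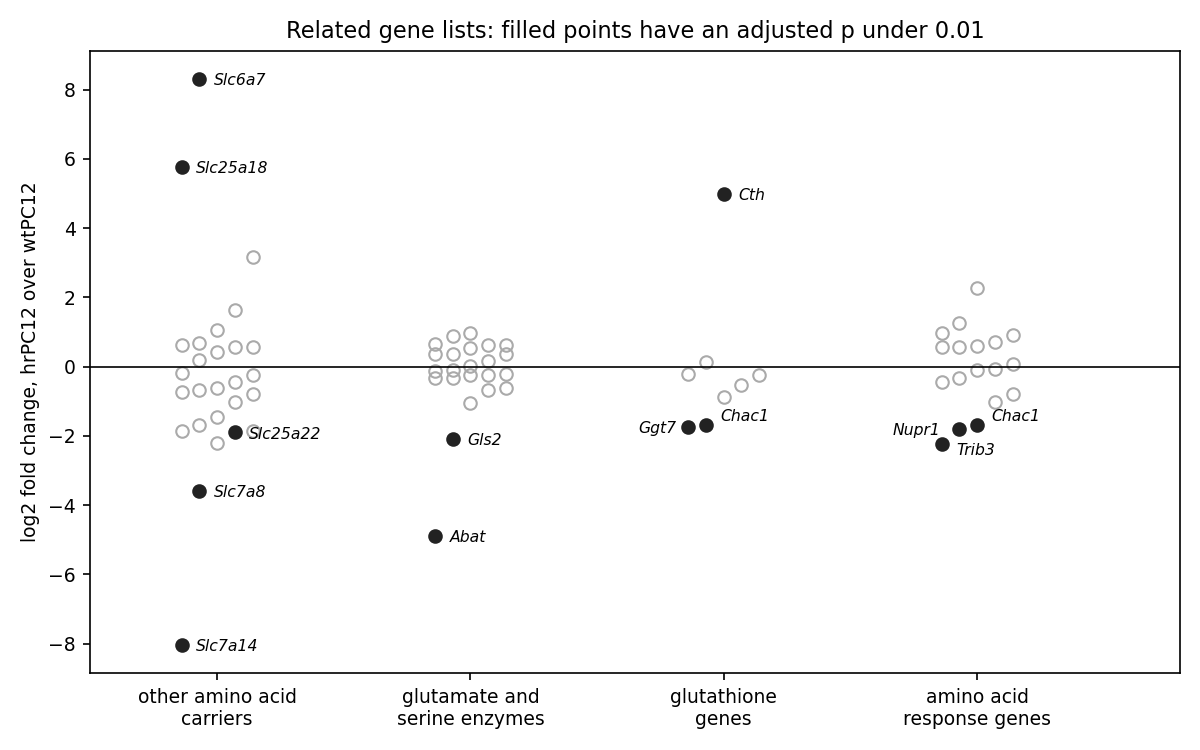
Log2 FC of hrPC12 over wtPC12 for the tested genes of 4 lists around the transporters (other amino acid carriers, enzymes of glutamate and serine, glutathione genes, amino acid response genes). Each point is a gene, filled and named where the adj. p value was under 0.01, from Slc7a14 at -8.04 to Slc6a7 at 8.31. Slc7a14, Slc6a7 and Slc25a18 passed the filter through 1 clone only, so their filled points are not tests. Slc38a5, an open point, also passed through 1 clone only, and Chac1 is in 2 lists.

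Of 26 listed enzymes that make and use glutamate, proline and serine, 23 were tested, with 2 lower and 0 higher at 0.01 (7.14% and 5.94% over all tested genes) and 3 lower and 1 higher at 0.05. Over all tested genes the shares at 0.05 were 16.3% and 16.1%. At an unadjusted p under 0.05 edgeR found 4 lower and 4 higher (22.7% and 23.6% over all tested genes). DESeq2 called 3 lower and 1 higher at 0.01 (14.0% and 13.7%). Abat, which breaks down GABA, read 575 and 636 in wtPC12 and 25.4 and 15.2 in hrPC12 (log2 FC -4.88, adj. p value 0.00124 by edgeR, Benjamini-Hochberg). Gls2, a glutaminase, which turns glutamine into glutamate, read 822 and 878 in wtPC12 and 184 and 217 in hrPC12, with a log2 FC of -2.09 and an adj. p value of 0.00399 in the same test by edgeR. The median of the list was -0.09.

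Glutathione genes were read because Slc7a11 supplies their cystine. Of 12 listed, 8 were tested, with 2 lower and 1 higher at 0.01 and at 0.05, and a median log2 FC of -0.39. Over all tested genes 7.14% were lower and 5.94% higher at 0.01, and 16.3% and 16.1% at 0.05. Cth, which makes cysteine from cystathionine, read 32.6 and 25.8 in wtPC12 and 1172 and 676 in hrPC12. Its log2 FC was 4.98, with an adj. p value of 0.00155 (edgeR's quasi-likelihood test, Benjamini-Hochberg). Cbs, chosen after its values were seen, went the other way and had too few reads for the test. It had 9 and 8 reads in wtPC12 and 1 and 0 in hrPC12. Ggt7, of the gamma-glutamyltransferase family, and Chac1, which degrades glutathione, were the genes called lower, at log2 FC of -1.73 and -1.68. The subunits of the enzyme that starts glutathione synthesis were not called, Gclc at a log2 FC of -0.21 (adj. p value 0.373) and Gclm at 0.15 (adj. p value 0.498) in the same test by edgeR.

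**Figure D5:**
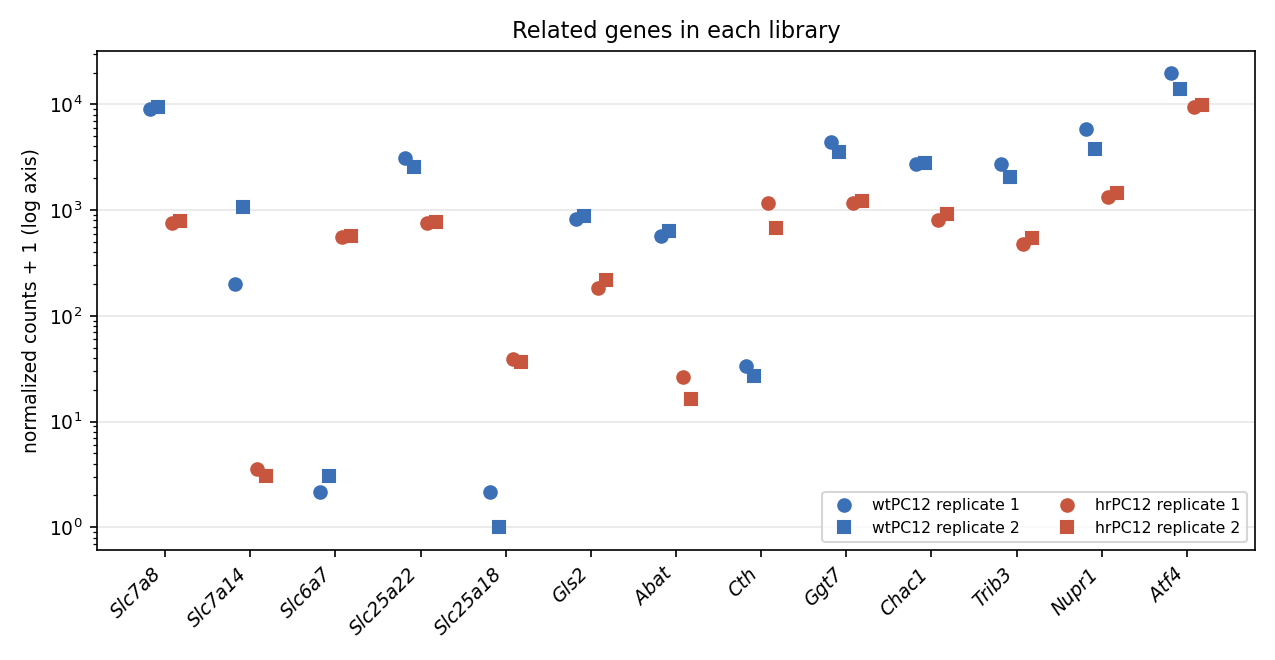
Normalized counts plus 1 on a log axis for genes around the transporters in each of the 4 libraries (blue, wtPC12; red, hrPC12; circles, replicate 1; squares, replicate 2). Slc7a8 drops from 9141 and 9517 to 760.2 and 795, Slc6a7 and Cth rise, and the wtPC12 libraries of Slc7a14 stand apart at 200.1 and 1073.

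All 18 genes of the amino acid and oxidative stress response list, which holds Atf4, kinases upstream of it, genes that it induces, and Nfe2l2 with its inhibitor Keap1, were tested, with 3 lower and 0 higher at 0.01 and 4 lower and 3 higher at 0.05. Over all tested genes edgeR called 7.14% lower and 5.94% higher at 0.01, and 16.3% and 16.1% at 0.05. At an unadjusted p under 0.05 edgeR found 6 lower and 7 higher (22.7% and 23.6% over all tested genes). DESeq2 called 4 lower and 2 higher at 0.01 (14.0% and 13.7%). The median log2 FC was -0.00. The genes called lower were Trib3, a pseudokinase that restrains ATF4, at 2759 and 2055 against 479 and 540, Chac1 at 2719 and 2800 against 810 and 910, and Nupr1, a small stress-induced nuclear protein, at 5870 and 3765 against 1338 and 1450. Their log2 FC were -2.24, -1.68 and -1.79, with adj. p values of 0.00305, 0.00318 and 0.00819 (edgeR's quasi-likelihood test, Benjamini-Hochberg). Atf4 itself read 19638 and 13927 in wtPC12 and 9516 and 9966 in hrPC12, with a log2 FC of -0.78 that did not pass the test (adj. p value 0.0533). Nfe2l2, which encodes Nrf2, had a log2 FC of 0.70 and an adj. p value of 0.0355 in edgeR's test. The others higher at 0.05, beside the 4 lower, were Atf3 (log2 FC 2.28) and Eif2ak3 (1.26), both named after their values were seen.

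Markers of other cells that carry these transporters were read beside them. Among 7 astrocyte markers 6 were found, 2 were tested, and both of these were called higher at 0.01 (5.94% over all tested genes). Their summed normalized counts were 690 to 951 in wtPC12 and 3555 to 6168 in hrPC12. Nearly all of this was Fgfr3, at 670 and 928 against 6078 and 3467 (5.97-fold, adj. p value 0.00646 by edgeR). Gja1 read 3.49 and 9.27 against 83.8 and 86.0 (12.9-fold, adj. p value 0.00842 by edgeR). Gfap and Aqp4 read 11.6 and 7.21, and 0 and 5.15, in wtPC12 and at most 0.847 and 0 in hrPC12, while Gjb6 and S100b reached no more than 3.39 in hrPC12. The part of cells of this kind in the values of Slc1a3 and Slc1a2 was not tested. Of 7 markers of Schwann and satellite glia, Sox10, Foxd3 and Cdh19 had 0 reads in every library. Fabp7 was at 0 in wtPC12 and at 99.9 and 78.9 in hrPC12, at least 27.2-fold higher. The list summed to 213 to 261 in wtPC12 and 388.5 to 397 in hrPC12. White blood cell markers summed to at most 33.0 in wtPC12 and 95.1 in hrPC12, with Ptprc at no more than 0.847. Most of this was Cd68, at 23.3 and 28.8 against 75.3 and 87.0 (3.10-fold, adj. p value 0.0283 by edgeR).

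Of 8 markers of chromaffin cells 6 were found, and 4 were called lower in hrPC12 at 0.01 (7.14% over all tested genes). Their sum was 797175 to 934145 in wtPC12 and 45533 to 49962 in hrPC12. Th, which starts catecholamine synthesis, read 202932 and 132838 against 18729 and 21001, and Chgb, a granule protein, read 687936 and 626776 against 288 and 820. Dbh and Slc18a1 were also lower. Ddc, at 24196 and 20841 against 26281 and 27994, and Slc18a2, at 209 and 147 against 218 and 115, were not called. The part of these identity genes in the differences of the transporters was not tested.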

How the data were processed

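RNA of both clones was prepared with TruSeq kits and sequenced on a HiSeq 2000, with 2 libraries each of wtPC12 and hrPC12. The authors mapped them to the rat build rn4 with TopHat2 2.0.4 and deposited, for each library, raw read counts per gene, which have the form written by HTSeq (version 0.5.3 in the submitters' processing notes). Whether strand was used in counting is not given in the sources used here. The deposited counts were neither normalized nor filtered. Lines that name no gene stayed out of the library sizes, and reads outside genes made up 49.9% to 55.9% of the reads accounted for. A further table of the authors' own DESeq comparison holds mean counts, fold changes and p values, and was not used.

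Counts were scaled with TMM factors and tested in R 4.3.3 with edgeR 4.0.16 (glmQLFit and glmQLFTest, legacy option on) in place of the authors' DESeq, over all 4 libraries. The filter and threshold follow the study: a mean of at least 5 normalized counts, reads in both clones, and an adjusted p under 0.01 with Benjamini-Hochberg adjustment over 13726 genes. The common dispersion was 0.0745. Scripts were tested on simulated data. Genes named are Rest, the 10 transporters, certain list genes fixed by name and, in each list, up to 4 called genes with the largest change and a mean of 100 or more normalized counts in the clone where it is higher. Any marker gene could also be named, and a few other list genes were chosen after their values were seen. Some genes that this rule covers were left out. The transporters and lists were chosen with earlier results of these data known. Of the listed genes, 5 other carriers, 1 enzyme (Glul), 2 glutathione genes and 3 markers were not found by name, and Sesn2 was found through a RefSeq synonym. Sequences are from RefSeq, assembly GRCr8, not the build used for counting. No gene lengths were used, so levels are compared within a gene only. Counting intervals are exact at 95%.

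As alternatives, counts were scaled with RLE factors or by library totals only, the filter was replaced by filterByExpr or by a minimum of 1 read, the legacy option was turned off, DESeq2 1.42.0 was used, the threshold was set to 0.05, and libraries were left out one by one.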

Additional observations from a re-analysis of the deposited data

How the results depend on the processing

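Counts of transporters here include Slc1a2 where it was fitted, and those of other carriers include Slc6a7, Slc25a18, Slc38a5 and Slc7a14. All of these passed the study's filter through 1 clone only, so their calls are not tests. Without them DESeq2 called 3 transporters and 6 other carriers lower at 0.01, and 1 transporter and 0 other carriers higher. With RLE factors, 3 transporters and 6 other carriers were lower and 2 amino acid response genes higher, beside 1342 of all genes lower and 1221 higher. Slc1a4 (log2 FC -1.07) and Slc3a2 (-1.26) passed 0.01 there. With library totals alone, 2 transporters and 1164 of all genes were lower, 2 response genes and 1269 of all genes higher, and Slc3a2 passed at -1.14. With every gene that had 1 read, 3 transporters were lower and 2 higher, 6 other carriers lower and 2 response genes higher. Of all 18416 genes tested there, 1465 were lower and 1594 higher (1127 past a log2 FC of 2). Slc1a4 (-1.03), Slc3a2 (-1.21) and Slc38a2 (1.40) passed. With filterByExpr and with the legacy option off, 1 response gene was higher. Of all genes, 1107 were lower and 1046 higher with filterByExpr, and 1033 and 881 with the legacy option off. DESeq2 called 3 transporters lower and 2 higher, 7 other carriers lower, 1 enzyme and 2 response genes higher, and 1928 of all genes lower and 1885 higher, with Slc1a4 at -1.06, Slc3a2 at -1.25 and Slc38a2 at 1.36. At an adjusted p under 0.05 there were 3 transporters lower and 2 higher, 9 other carriers lower, 1 enzyme and 3 response genes higher, 2234 of all genes lower and 2215 higher (1088 past a log2 FC of 2), and Slc1a4 (-1.03), Slc3a2 (-1.21) and Slc38a2 (1.40) were called.

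With each library left out, transporters numbered 0 to 1 lower and 0 to 2 higher, other carriers 0 to 5 lower and 0 to 2 higher, enzymes 0 to 2 lower, glutathione genes 0 to 2 lower and 0 to 1 higher, response genes 0 to 3 lower and 0 to 1 higher, and all genes 0 to 1035 lower and 0 to 1157 higher (0 to 859 and 0 to 962 past a log2 FC of 2). Each 0 among the lower counts was found without wtPC12 replicate 2, when edgeR called 0 genes and 6798 had an unadjusted p under 0.05. All 11 other named genes of the lists that were called also missed 0.01 there. Without wtPC12 replicate 1, 482 of all genes were higher and 0 transporters. Slc1a2 ranged from 5.07 to 5.87 (not tested without wtPC12 replicate 2, as its lone read is there), Slc1a5 from -2.53 to -2.30, Slc38a2 from 0.94 to 1.71, and Slc38a1 from -0.15 to 0.52, where it reversed without wtPC12 replicate 1. In these fits the lone library of a clone is assumed to vary like the pair of the other. The directions of the other 8 tested transporters were the same under every alternative run. The cause of these shifts was not tested. The median log2 FC over all genes lay between -0.01 and 0.16 under the alternatives, beside 0.06 as reported, and under RLE factors, library totals and DESeq2 it stayed within 0.1 of that value.

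With 2 libraries per clone the spread is poorly known, and counts near 3 reads, as for Slc1a1, show no difference short of several-fold. Levels per gene length and protein sequences were not run.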
